A study of Mus musculus with 18 samples.

Results

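The 38 genes described here encode the NRF2 antioxidant and glutathione system: the sensor and its partners, the cystine and glutathione route, the thioredoxin route, peroxide and superoxide removal, NADPH supply, conjugation and export. They were chosen by gene symbol, with earlier results of these data known. All 38 were found on 1 row each among the 55487 genes of the deposited count table. Of them, 34 passed the filter on low counts and were tested among 15996 genes. Gsta4 and Cbr3 had 0 counts in every library, Mgst1 had 1 count and Cbr1 had 59 counts over the 18 libraries, so these 4 were not tested.

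RNA was sequenced from BV2 cells, an immortalised mouse microglial line, exposed to oxyhemoglobin, the blood protein released around the brain after a subarachnoid bleed. There were 6 groups of 3 libraries: the line labelled BAK1-KD at control (0 h) and after 12 h and 24 h at a labelled dose of 10 mM, and the line labelled NC at the same 3 points. All cells shared the same serum-containing medium and were plated 12 h before the exposure began. What NC and KD stand for, how the KD-labelled line was derived and whether it is 1 clone are not in the labels, and since every 12 h and 24 h library was exposed, hours in culture and exposure cannot be told apart. Bak1 itself summed to 39 counts over the 9 libraries labelled KD and 25 counts over the 9 NC libraries, so at this depth it did not check the label, and the line is called KD-labelled throughout. The labels do not say whether the 3 libraries of a group were separate cultures, and the spread behind each p-value may therefore be technical.

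Library totals ran from 4361313 to 6008810 counts, with 20896 to 22503 genes detected per library. A gene with 3 counts, the floor used here, corresponded to 0.457 to 0.76 counts per 1000000 (CPM). Of 16 microglia and macrophage markers, 15 had at least 10 counts, but P2ry12 had 8 counts in all and Aif1 had 43. The summed CPM of the 16, most of it from Lyz2 (median 4160 CPM), followed by Cd14 (640) and Spi1 (289), ran from 4227 to 5918 at control, 4643 to 5868 at 12 h and 6165 to 7586 at 24 h in the KD-labelled line, and from 4229 to 5499, 4369 to 6082 and 5265 to 6783 in the NC line. The part of this in the members' values was not tested. Globin genes, Rbfox3, Syt1, Snap25, Aqp4, Slc1a3, Mog, Olig2 and Col1a2, which mark erythroid, neural and stromal cells, were at 0 in every library. Between 12.89 and 25.27% of each library's counts fell on CT010467.2. The 6 libraries numbered 2 stood apart on the second principal component, which held 14.7% of the variance. Library 2 was the lowest of its group in all 6 groups for 10 of the 34 tested members (29.4%), against 9.38% of all genes tested. Those 10 were Txnrd1, Srxn1, Gpx1, Gpx4, Sod1, Cat, Pgd, Tkt, Ugdh and Aifm2. What sets these libraries apart was not tested. These are bulk libraries, in which fewer cells making a transcript and less of it per cell cannot be told apart.

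NRF2, encoded by Nfe2l2, is a transcription factor that the adaptor KEAP1 holds in the cytoplasm and hands to degradation. Electrophiles and oxidants modify cysteines of KEAP1, NRF2 then accumulates, and it binds antioxidant response elements next to genes for glutathione synthesis, thioredoxin cycling, NADPH supply and detoxification. BACH1 occupies the same elements as a repressor and is released by heme, which makes this gene set of interest in microglia, the cells that take up blood products in the brain.

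Exposure to oxyhemoglobin was followed by higher levels of antioxidant genes in both lines, and in the edgeR fit reported here no member was lower at an adjusted p under 0.05 in any of the 4 comparisons of an exposed group with its control. At an unadjusted p under 0.05, 1 member was lower at 12 h and 1 at 24 h in the KD-labelled line (Osgin1, then Bach1), and 1 at 12 h and 3 at 24 h in the NC line (Bach1 at both times, with Osgin1 and Aifm2 at 24 h). The share of all genes lower at an unadjusted p was not computed, so these counts are not read as many or few. DESeq2 called Bach1 lower at both times in the NC line. Other edgeR settings called Osgin1, Bach1 or Aifm2 lower, and these are given with each gene. In the KD-labelled line, 15 of 34 members were higher at 12 h, where 7.93% of all genes tested were higher and 8.06% lower, and 12 of 34 were higher at 24 h, where 5.5% of all genes were higher and 4.09% lower. In the NC line, 15 of 34 were higher at 12 h against 6.69% of all genes (5.55% lower), and 11 of 34 were higher at 24 h against 4.66% of all genes (2.91% lower). The members were chosen with earlier results of these data known, so these shares describe the list and do not test it. Adjusted p-values throughout are Benjamini-Hochberg values over the 15996 genes, from the quasi-likelihood test of edgeR. The median log2 change of the 34 members was 0.41 and 0.45 at 12 h and 24 h in the KD-labelled line, while the median of all genes was 0.004 and -0.001. The members' median in the NC line was 0.65 at 12 h and 0.47 at 24 h, with all genes at -0.008 and 0.002. The comparisons at 12 h and 24 h share the control libraries of their line, so they are not independent of each other.

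The 2 lines share no library, and their calls at a given time can be set against each other. These calls are not fully independent, since 1 fit over all 18 libraries gave the spread for both lines. At 12 h, libraries of the same number also varied together between the lines (correlations of 0.2 to 0.438). Because the members were chosen with earlier results known, the agreement below describes the list and does not test it. At 12 h, 14 genes were higher in both lines, which is 93.3% of the 15 genes in the KD-labelled line and 93.3% of the 15 in the NC line. Taldo1 was called in the KD-labelled line alone and Txn1 in the NC line alone. At 24 h, 11 genes were higher in both, which is 91.7% of the 12 genes in the KD-labelled line and all 11 of the NC line, and Gclm was called in the KD-labelled line alone. Over all genes tested, those higher in both lines at 12 h were 60% of the genes called higher in the KD-labelled line and 71.2% of those in the NC line, and at 24 h they were 55.9% and 66%. The test of the difference between the lines passed the threshold for none of Taldo1, Txn1 and Gclm. With the library number as a block in the fit, the NC line at 24 h had 15 members higher and 2 lower, against 10.6% and 8.3% of all genes, and the other 3 comparisons with control moved by less than 1.5 times.

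**Figure D1:**
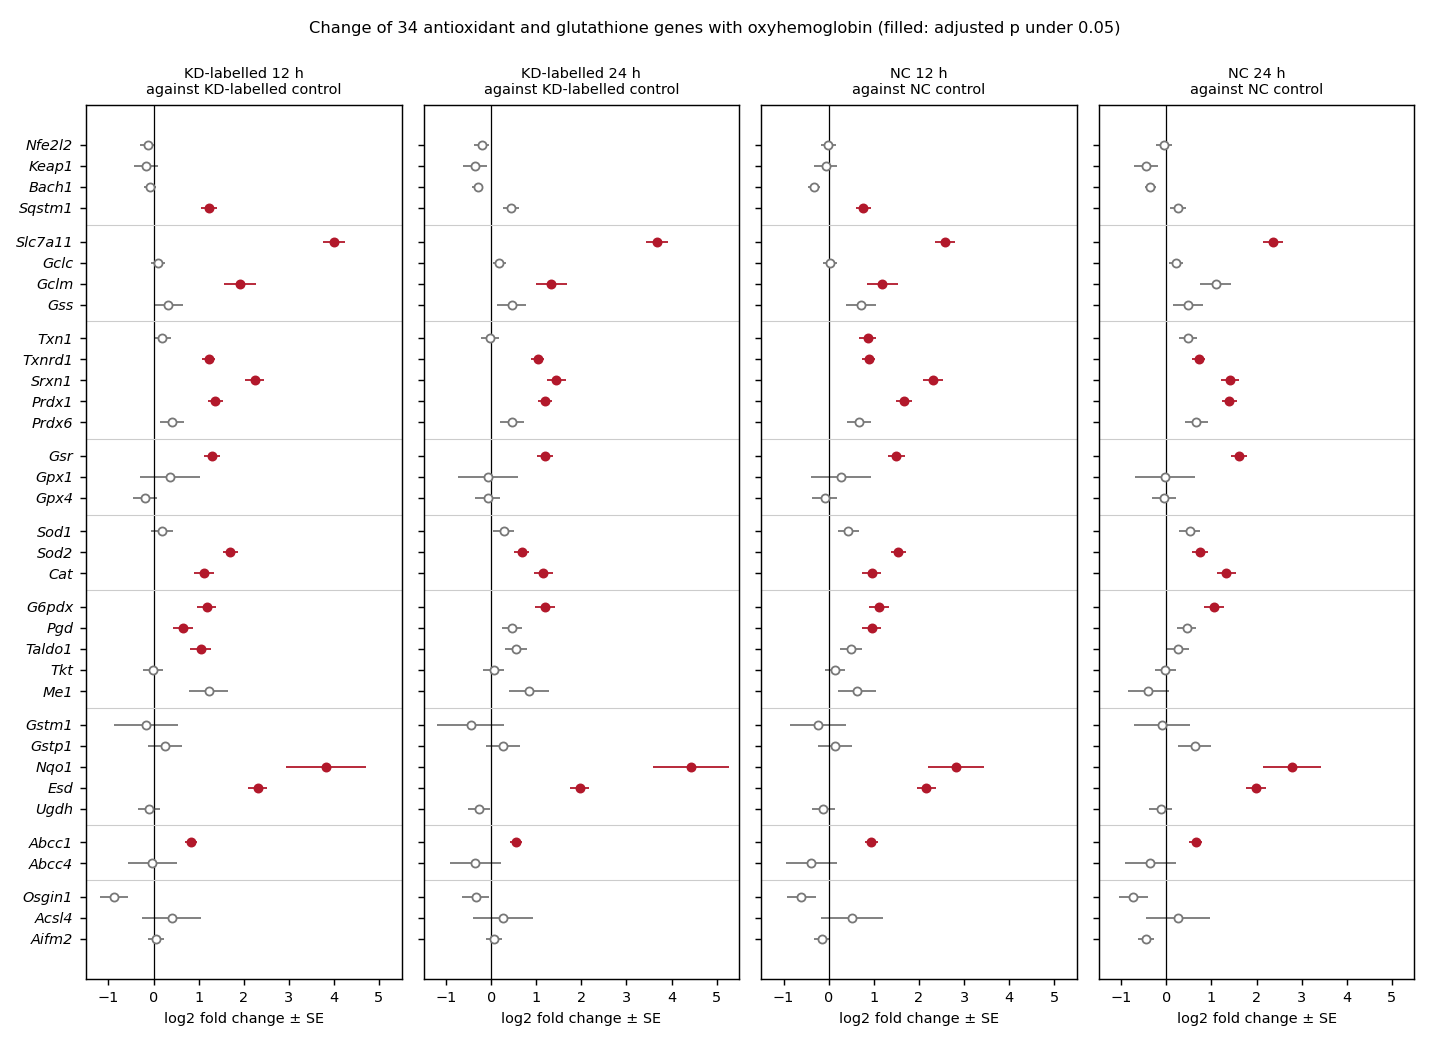
Log2 fold change with its standard error for the 34 tested genes (rows, grouped by role) in each exposed group against the control of its line (columns), 3 libraries per group. Filled points have an adjusted p under 0.05; all of them lie to the right of 0, with 15 and 12 in the KD-labelled line and 15 and 11 in the NC line.

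The start regions of 33 members were found in RefSeq (GRCm38.p6), in 43 windows of 250 bases before and 50 after a start site. Abcc1, Gclc, Gsr, Gsta4 and Prdx6 had no entry. The antioxidant response element core TGACNNNGC, searched on both strands, was in 13 of the 43 windows (30.2%) and in 12 genes, and it was in 12.4% of all 32851 windows. The 12 genes were Nfe2l2, Gclm, Txnrd1, Srxn1, Prdx1, Sod1, G6pdx, Pgd, Me1, Mgst1, Ugdh and Abcc4. The AP-1 site TGACTCA was in 5 windows (11.6%) and in 5.2% of all windows. The joined form TGACTCAGC, in which both motifs overlap, was in the windows of Prdx1 and Me1 (4.65% of the members' windows, 0.454% of all). Prdx1, Txnrd1, G6pdx and Gclm are shown because they hold the core before the start and rose with exposure. Nfe2l2, Sod1, Me1, Ugdh and Abcc4 also hold it before a start, and in the edgeR fit reported here they passed in no comparison with control. Mgst1 holds it before the start as well and was not tested. The display was thus picked by the response, and a tie between the core and the response was not tested. The 250 bases before the start site are chr3:122245307-122245556 (plus strand) for Gclm, chr10:82858956-82859205 (plus strand) for Txnrd1, chr4:116685349-116685598 (plus strand) for Prdx1 and chrX:74428881-74429130 (minus strand) for G6pdx. They are given on the gene's own strand, with the match to the core in capitals.
Gclm: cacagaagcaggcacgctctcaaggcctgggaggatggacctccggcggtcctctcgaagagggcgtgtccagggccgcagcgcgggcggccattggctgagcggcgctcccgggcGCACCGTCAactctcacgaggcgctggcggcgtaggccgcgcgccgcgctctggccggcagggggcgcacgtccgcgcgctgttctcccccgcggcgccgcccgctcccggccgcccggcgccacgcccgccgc
Txnrd1: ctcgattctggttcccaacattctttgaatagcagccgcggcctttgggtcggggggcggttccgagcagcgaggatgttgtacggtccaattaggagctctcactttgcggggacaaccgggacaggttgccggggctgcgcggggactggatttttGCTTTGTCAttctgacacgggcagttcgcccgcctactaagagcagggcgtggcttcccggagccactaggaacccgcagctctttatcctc
Prdx1: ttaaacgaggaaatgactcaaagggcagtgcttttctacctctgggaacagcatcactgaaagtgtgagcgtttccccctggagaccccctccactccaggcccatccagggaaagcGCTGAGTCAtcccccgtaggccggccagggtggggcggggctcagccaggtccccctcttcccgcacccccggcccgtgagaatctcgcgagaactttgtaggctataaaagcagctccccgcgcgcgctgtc
G6pdx: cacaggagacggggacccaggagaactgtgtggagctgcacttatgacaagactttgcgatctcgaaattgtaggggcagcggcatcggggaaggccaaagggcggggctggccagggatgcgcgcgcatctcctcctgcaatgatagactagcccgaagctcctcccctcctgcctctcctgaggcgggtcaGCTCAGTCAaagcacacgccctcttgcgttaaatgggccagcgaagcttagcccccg

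The match began 134 bases before the start in Gclm, 92 in Txnrd1, 133 in Prdx1 and 57 in G6pdx, and each of the 4 read as the reverse complement of the core. In Prdx1 the letters GCTGAGTCA also hold the AP-1 site. Txnrd1 has 3 listed start sites, and the core was in the window of the middle one (chr10:82858956-82859255). In Srxn1 the match, GCTAGGTCA, lay 28 bases after the start. A match is a description of these letters and not a bound site. Slc7a11, Esd, Cat, Sod2 and Nqo1 had no match in their windows.

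Levels differed widely among the members. On the deposited TPM scale (transcripts per 1000000, which divides by gene length), Prdx1 and Txn1 had medians of 448.2 and 448 TPM over the 18 libraries, followed by Pgd at 283, Srxn1 at 260, G6pdx at 202.5 and Nfe2l2 at 189.2 TPM. The ranges of these neighbours over libraries overlapped. At the low end, Nqo1 had a median of 1.74 TPM, Gstm1 0.648, Cbr1 0.198, Acsl4 0.182 and Abcc4 0.165 TPM. The deposited gene length was over 1.5 times the exon bases of GENCODE M21 for 23 of the 38 members (18182 against 7086 bases for Txnrd1), which lowers their TPM and bears on the order between genes.

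**Figure D2:**
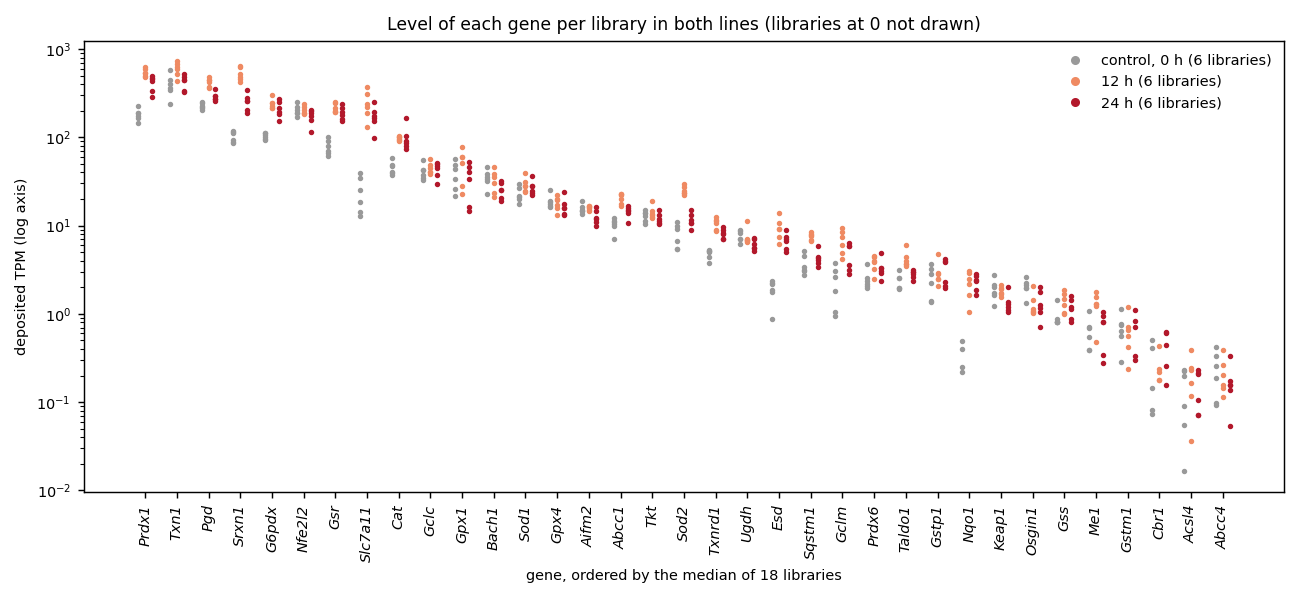
Deposited TPM (log axis) of the members with a median above 0, ordered by the median over the 18 libraries; each point is a library, coloured by time, and both lines are drawn together. Slc7a11, Srxn1, Nqo1 and Esd show control libraries well below the exposed ones, whereas Nfe2l2, Gclc and Bach1 overlap across times.

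No change of the transcripts of NRF2 or its adaptor passed the threshold. Nfe2l2 (chr2:75675513-75704641, minus strand) had 478, 440 and 487 normalised CPM at control, 502, 382 and 397 CPM at 12 h and 443, 380 and 390 at 24 h in the KD-labelled line. NC levels of Nfe2l2 were 447, 358 and 394.5 CPM at control, 437, 340 and 417 CPM at 12 h and 317, 357 and 481 at 24 h. The groups overlapped at all times, and the log2 changes ran from -0.21 to -0.01 with adjusted p of 0.529 or more. Keap1 averaged 16.0 ± 5.8, 14.2 ± 2.5 and 12.4 ± 3.7 CPM at control, 12 h and 24 h in the KD-labelled line and 14.9 ± 1.4, 14.2 ± 2.5 and 10.9 ± 1.3 CPM in the NC line (SD, n = 3 each). At 24 h it had 11.4, 9.42 and 11.97 CPM in the NC line, against 16.5, 14.5 and 13.7 CPM at control. These did not overlap, with a log2 change of -0.45 ± 0.26 (adjusted p = 0.383), while in the KD-labelled line the groups overlapped (-0.36 ± 0.26, adjusted p = 0.482). Of its exon bases, 10.9% overlap a gene on the other strand.

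Bach1, the heme-sensitive repressor (chr16:87698945-87733346, plus strand), had 180, 177 and 171 CPM at control, 162, 174 and 163 CPM at 12 h and 152, 138 and 138 at 24 h in the KD-labelled line. NC levels of Bach1 were 132, 146 and 155 CPM at control, 108, 121 and 118 CPM at 12 h and 114, 114 and 111 at 24 h. Exposed libraries were thus lower than control libraries in the NC line at both times and in the KD-labelled line at 24 h, without overlap. The log2 changes of -0.32 ± 0.13 and -0.35 ± 0.13 at 12 h and 24 h in the NC line and -0.30 ± 0.13 at 24 h in the KD-labelled line missed the threshold (adjusted p = 0.118, 0.107 and 0.162). With the library number as a block, they passed it (adjusted p = 0.00804, 0.00474 and 0.014). Bach1 also passed in the NC line with DESeq2 (adjusted p = 0.0336 and 0.0213) and, at 12 h, with a filter of 5 CPM in 3 libraries (adjusted p = 0.0492).

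Sqstm1 (chr11:50199366-50210827, minus strand) encodes p62, an autophagy adaptor that binds KEAP1 and is itself an NRF2 target. It had 13.0, 13.0 and 16.2 CPM at control, 36.7, 29.6 and 32.2 CPM at 12 h and 20.1, 17.99 and 18.8 at 24 h in the KD-labelled line. NC levels of Sqstm1 were 18.1, 20.9 and 20.6 CPM at control, 35.3, 33.4 and 33.1 CPM at 12 h and 22.3, 26.2 and 23.2 at 24 h. The 12 h libraries were the highest of each line, and the rise at 12 h was 1.22 ± 0.17 on the log2 scale in the KD-labelled line (adjusted p = 2.11e-05) and 0.77 ± 0.17 in the NC line (adjusted p = 0.00336). At 24 h the changes of 0.44 and 0.26 did not pass (adjusted p = 0.14 and 0.448). Of the exon bases of Sqstm1, 17.3% overlap Mrnip on the other strand, and no source used here says whether counting used strand.

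The cystine and glutathione route held Slc7a11, which gained more normalised CPM than any other member at both times in both lines. The gene (chr3:49892526-50443614, minus strand) encodes xCT, the light chain of the antiporter that brings in cystine in exchange for glutamate. It had 127, 203 and 155 CPM at control, 2114, 2915 and 2770 CPM at 12 h and 1647, 2344 and 2211 at 24 h in the KD-labelled line. NC levels of Slc7a11 were 221, 336 and 334.5 CPM at control, 1406, 1958 and 1951 CPM at 12 h and 1216, 1663 and 1708 at 24 h. Every exposed library stood far above every control library of its line. The log2 changes were 4.003 ± 0.24 at 12 h and 3.67 ± 0.24 at 24 h in the KD-labelled line (adjusted p = 5.68e-11 and 3.83e-10). NC cells gave 2.57 ± 0.23 and 2.36 ± 0.22 (adjusted p = 3.53e-08 and 2.09e-07).

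Of the enzyme that makes gamma-glutamylcysteine, the rate-limiting step of glutathione synthesis, the modifier subunit rose in 3 of the 4 comparisons with control and the catalytic subunit passed the threshold in none. Gclm, the modifier subunit (chr3:122245557-122270732, plus strand), had 5.76, 11.9 and 11.2 CPM at control, 26.6, 41.6 and 42.0 CPM at 12 h and 19.6, 33.7 and 20.5 at 24 h in the KD-labelled line. NC levels of Gclm were 6.47, 18.3 and 16.7 CPM at control, 25.2, 34.9 and 35.3 CPM at 12 h and 20.01, 31.6 and 37.0 at 24 h. Library 1 was the lowest of its group in all 6 groups, and no exposed library overlapped the controls of its line. The log2 change was 1.92 ± 0.35 at 12 h and 1.34 ± 0.35 at 24 h in the KD-labelled line (adjusted p = 0.000388 and 0.0149). Gclm changed by 1.19 ± 0.34 at 12 h in the NC line (adjusted p = 0.0212), and its 1.09 ± 0.34 at 24 h narrowly missed the threshold (adjusted p = 0.0506, 1.04e-05 with the block, 0.0239 with DESeq2 and 0.000743 with no filter on low counts). The NC call at 12 h was lost without control library 1 or 12 h library 2 or 3 (adjusted p up to 0.101), and the KD-labelled call at 24 h without control library 1 or 24 h library 2 (adjusted p up to 0.113). Both calls were also lost without the 6 libraries numbered 2 (adjusted p = 0.121 in the KD-labelled line and 0.0536 in the NC line) and with library totals alone (adjusted p = 0.0615 and 0.0829).

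Gclc, the catalytic subunit, averaged 94.2 ± 3.3, 100.7 ± 11 and 107 ± 15 CPM at control, 12 h and 24 h in the KD-labelled line. NC means of Gclc were 114 ± 10, 117 ± 5 and 132 ± 15 CPM (SD, n = 3 each). Its log2 changes lay between 0.03 and 0.21, with adjusted p of 0.486 or more. Gss, glutathione synthetase, had 4.62 to 12.2 CPM over the 18 libraries and log2 changes of 0.33 to 0.71 that did not pass (adjusted p of 0.183 or more). For Gss, 15.4% of the exon bases overlap genes on the other strand.

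In the thioredoxin route, 3 of the 5 members rose at both times in both lines. Srxn1, sulfiredoxin, which repairs over-oxidised peroxiredoxins (chr2:152105516-152111376, plus strand), had 236, 184.5 and 255 CPM at control, 1204, 824 and 1160 CPM at 12 h and 694, 493 and 653 at 24 h in the KD-labelled line. NC levels of Srxn1 were 216, 149 and 183 CPM at control, 988, 715 and 1016 CPM at 12 h and 478, 393 and 586 at 24 h. The level peaked at 12 h in each numbered set of libraries, and library 2 was the lowest of its group throughout. The log2 changes were 2.24 ± 0.21 at 12 h and 1.45 ± 0.21 at 24 h in the KD-labelled line (adjusted p = 8.62e-08 and 3.5e-05). The NC line gave 2.31 ± 0.21 and 1.41 ± 0.21 (adjusted p = 6.8e-08 and 8.05e-05).

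Prdx1, a peroxiredoxin that reduces peroxides (chr4:116685544-116700822, plus strand), had 533, 578 and 645 CPM at control, 1624, 1530 and 1368 CPM at 12 h and 1356, 1447 and 1213 at 24 h in the KD-labelled line. NC levels of Prdx1 were 625, 504 and 443 CPM at control, 1688, 1551 and 1757 CPM at 12 h and 1136, 1391 and 1602 at 24 h. No exposed library overlapped a control, and the log2 changes of 1.36 and 1.19 in the KD-labelled line and 1.67 and 1.39 in the NC line all passed (largest adjusted p = 2.35e-05). A stretch covering 26% of the Prdx1 transcript is also in the processed pseudogene Gm7204, so some reads could have been split between them.

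Txnrd1, the cytosolic thioredoxin reductase (chr10:82833951-82897712, plus strand), had 51.2, 41.3 and 41.6 CPM at control, 108, 100.4 and 104 CPM at 12 h and 97.0, 83.7 and 92.7 at 24 h in the KD-labelled line. NC levels of Txnrd1 were 54.3, 46.5 and 50.2 CPM at control, 96.1, 90.5 and 91.5 CPM at 12 h and 90.2, 78.7 and 79.9 at 24 h. The spread within groups was small and the groups did not overlap with control. The log2 changes were 1.22 ± 0.14 and 1.03 ± 0.14 in the KD-labelled line and 0.88 ± 0.14 and 0.72 ± 0.14 in the NC line, and all passed (largest adjusted p = 0.00217).

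Txn1, thioredoxin itself (chr4:57943373-57956411, minus strand), had 232, 272 and 287 CPM at control, 347, 335 and 225.5 CPM at 12 h and 277, 282 and 219 at 24 h in the KD-labelled line, where the groups overlapped. NC levels of Txn1 were 242, 184 and 134 CPM at control, 325, 326 and 368 CPM at 12 h and 242, 249 and 292 at 24 h. It rose in the NC line at 12 h (0.86 ± 0.19 on the log2 scale, adjusted p = 0.00393), while the KD-labelled line gave 0.20 ± 0.19 (adjusted p = 0.574). At 24 h the NC libraries lay above control, the lowest of them only just, with a log2 change of 0.48 ± 0.19 that did not pass (adjusted p = 0.153, and 0.0342 without NC control library 1). A stretch covering 29.3% of the transcript is also in the pseudogene Txn-ps1. Prdx6, a peroxiredoxin that draws on glutathione, had 12.2 to 39.0 CPM over all libraries and log2 changes of 0.41 to 0.67 that did not pass. Prdx6 passed with the block in the NC line at 12 h and 24 h (adjusted p = 0.0246 and 0.0375), and at 12 h without the 6 libraries numbered 2 (adjusted p = 0.0386).

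**Figure D3:**
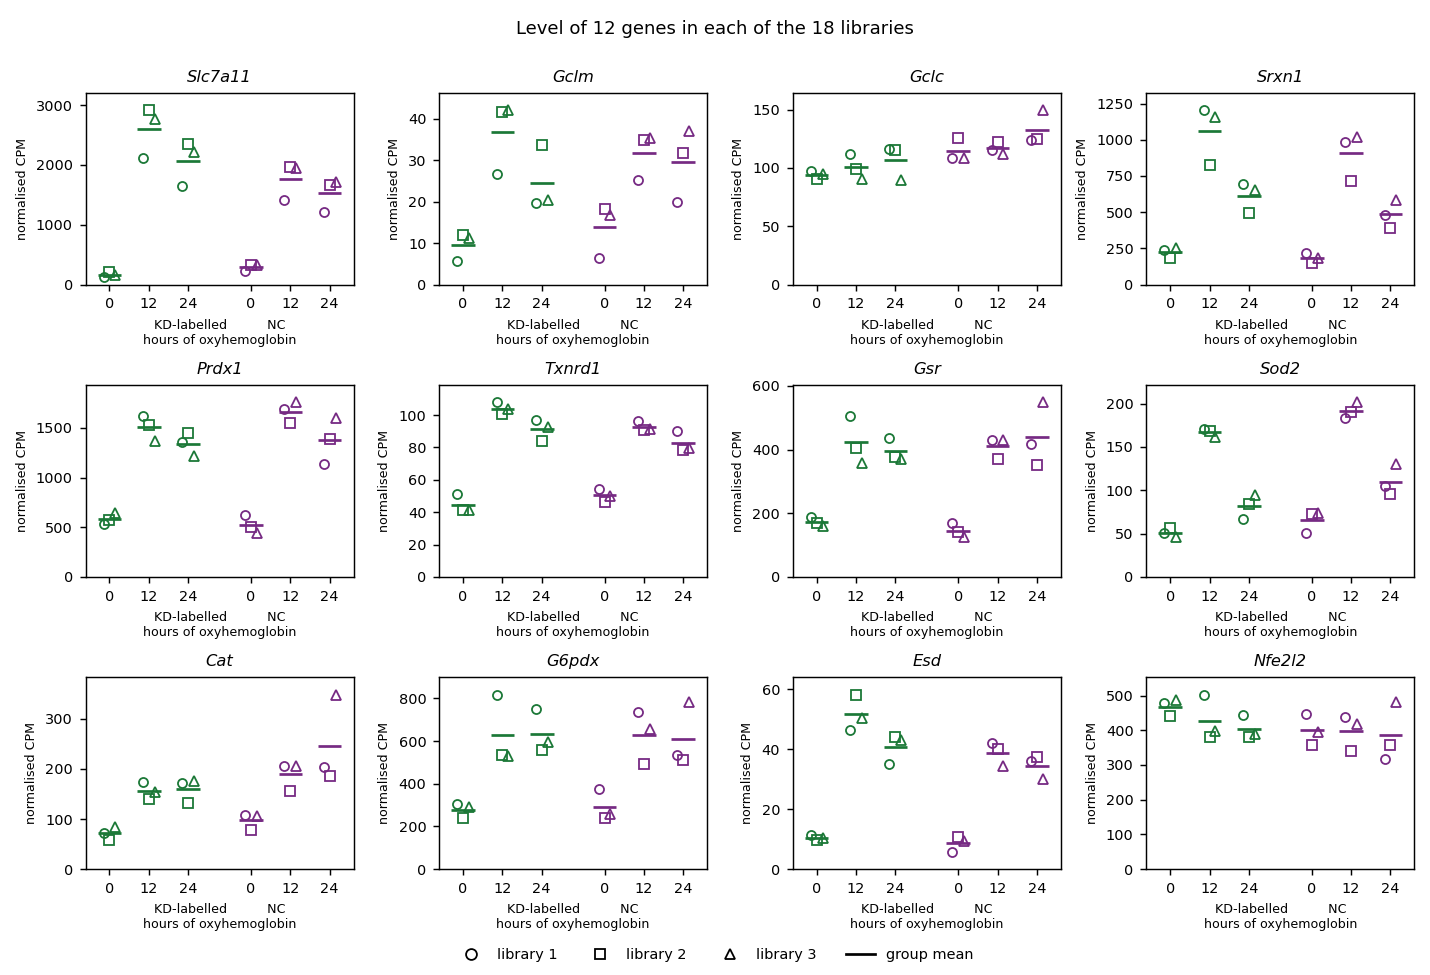
Normalised CPM (axis from 0) of 12 genes in each of the 18 libraries, by hours of exposure, with the KD-labelled line left and the NC line right; symbols mark the library number and bars the group mean. Slc7a11, Srxn1, Prdx1, Gsr, Cat, G6pdx and Esd stand above control at 12 h and 24 h in both lines, Sod2 and Srxn1 fall back by 24 h, and the exposed libraries of Nfe2l2 overlap its controls.

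Among glutathione cycling enzymes, the reductase rose and the peroxidases did not pass. Gsr, which regenerates reduced glutathione with NADPH (chr8:33652523-33698163, plus strand), had 188, 169 and 160 CPM at control, 505, 405 and 356 CPM at 12 h and 437.5, 376 and 371 at 24 h in the KD-labelled line. NC levels of Gsr were 168, 142 and 124 CPM at control, 431, 369 and 429 CPM at 12 h and 419, 350 and 548 at 24 h. The groups were well apart from control, and the log2 changes were 1.29 ± 0.18 and 1.19 ± 0.18 in the KD-labelled line (adjusted p = 1.31e-05 and 5.48e-05) and 1.501 ± 0.18 and 1.60 ± 0.18 in the NC line (adjusted p = 3.26e-06 and 2.12e-06).

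Gpx1, the abundant cytosolic glutathione peroxidase, had 81.8, 33.4 and 100.5 CPM at control, 108, 34.2 and 133.5 CPM at 12 h and 75.3, 28.9 and 101.0 at 24 h in the KD-labelled line. NC levels of Gpx1 were 78.0, 42.2 and 104 CPM at control, 124, 44.2 and 103 CPM at 12 h and 124, 26.6 and 70.7 at 24 h. Library 2 was the lowest of every group, and the standard error of the log2 change was 0.66 to 0.67, so a change of this gene was hardly detectable. Gpx4, which reduces lipid peroxides and restrains ferroptosis, had log2 changes of -0.19 to -0.06 (adjusted p of 0.729 or more). A stretch covering 73.7% of the Gpx4 transcript is also in the pseudogene Gpx4-ps2, so its counts are uncertain.

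Mitochondrial superoxide dismutase and catalase rose, and cytosolic superoxide dismutase did not pass. Sod2 (chr17:13006846-13040063, plus strand) had 50.8, 56.6 and 46.2 CPM at control, 171, 168 and 162 CPM at 12 h and 67.2, 84.3 and 94.1 at 24 h in the KD-labelled line. NC levels of Sod2 were 51.1, 72.2 and 73.5 CPM at control, 184, 190 and 201 CPM at 12 h and 105, 95.5 and 130 at 24 h. The 12 h libraries were close together and the highest of each line. The log2 changes were 1.70 ± 0.17 at 12 h and 0.67 ± 0.17 at 24 h in the KD-labelled line (adjusted p = 2.26e-07 and 0.012) and 1.55 ± 0.17 and 0.74 ± 0.17 in the NC line (adjusted p = 1.08e-06 and 0.00649). The KD-labelled call at 24 h was lost without control library 3 or 24 h library 2 or 3 (adjusted p up to 0.0939), and the NC call at 24 h without control library 1 or 24 h library 3 (adjusted p up to 0.0651). With library totals alone the KD-labelled call at 24 h was also lost (adjusted p = 0.0529). Stretches covering 6.2% of the Sod2 transcript are also in transcripts of 9 other genes.

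Cat, catalase, which splits hydrogen peroxide (chr2:103453849-103485160, minus strand), had 72.6, 57.3 and 84.5 CPM at control, 173, 139 and 153 CPM at 12 h and 171, 132 and 175 at 24 h in the KD-labelled line. NC levels of Cat were 109, 78.3 and 107 CPM at control, 205.5, 156 and 206 CPM at 12 h and 205, 186 and 348 at 24 h. No exposed library overlapped its control, and the log2 changes of 1.12 and 1.16 in the KD-labelled line and 0.95 and 1.33 in the NC line all passed (largest adjusted p = 0.00418). Sod1, the cytosolic copper-zinc enzyme, had log2 changes of 0.18 to 0.51 that did not pass (adjusted p of 0.245 or more). Sod1 passed with the block in the NC line at 12 h and 24 h (adjusted p = 0.00873 and 0.00222), and library 2 was its lowest in every group. A stretch covering 10.1% of the Sod1 transcript is also in the processed pseudogene Gm8566, which had 1509 counts over all libraries against 6040 for Sod1.

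NADPH, the electron donor of both the glutathione and the thioredoxin routes, is made by the pentose phosphate pathway and malic enzyme. G6pdx, which catalyses the entry step of that pathway (chrX:74409483-74429194, minus strand), had 305.5, 240 and 289 CPM at control, 817, 534 and 531.5 CPM at 12 h and 751.5, 558 and 596.5 at 24 h in the KD-labelled line. NC levels of G6pdx were 376, 241 and 259 CPM at control, 737, 493 and 656 CPM at 12 h and 537, 510.3 and 783 at 24 h. All exposed libraries were above the controls, and the log2 changes of 1.17 and 1.19 in the KD-labelled line and 1.11 and 1.06 in the NC line passed (largest adjusted p = 0.00293). Of the exon bases of G6pdx, 13.6% overlap Ikbkg on the other strand.

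Pgd, the other NADPH-yielding step of the pathway (chr4:149149991-149166771, minus strand), had 1111, 744 and 1103 CPM at control, 1884, 1286 and 1484 CPM at 12 h and 1541, 1122 and 1392 at 24 h in the KD-labelled line. NC levels of Pgd were 1322, 817 and 951 CPM at control, 2301, 1553 and 2106 CPM at 12 h and 1650, 1096 and 1471 at 24 h. Library 2 was the lowest of each group. Pgd rose at 12 h by 0.65 ± 0.22 on the log2 scale in the KD-labelled line (adjusted p = 0.0451) and by 0.95 ± 0.22 in the NC line (adjusted p = 0.0051), and the KD-labelled call was lost without any 1 of its 3 control libraries or without 12 h library 1 or 3 (adjusted p up to 0.193). At 24 h the log2 change was 0.46 in the KD-labelled line and 0.45 in the NC line (adjusted p = 0.229 and 0.269), and both passed with the block (adjusted p = 2.38e-05 and 4.46e-05).

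Taldo1, transaldolase of the non-oxidative branch (chr7:141392199-141402968, plus strand), had 5.55, 5.79 and 6.03 CPM at control, 10.8, 9.98 and 15.1 CPM at 12 h and 8.41, 6.91 and 10.2 at 24 h in the KD-labelled line. NC levels of Taldo1 were 6.68, 7.75 and 6.94 CPM at control, 10.6, 8.62 and 11.1 CPM at 12 h and 8.36, 8.10 and 9.02 at 24 h. Exposed libraries were above control libraries in both lines, and the change passed in the KD-labelled line at 12 h (1.04 ± 0.24, adjusted p = 0.00372), while the NC line gave 0.50 ± 0.24 (adjusted p = 0.207). Tkt, transketolase, had log2 changes of -0.02 to 0.13 (adjusted p of 0.798 or more). Me1, cytosolic malic enzyme, had 1.52 to 6.48 CPM, and its largest log2 change of 1.22 ± 0.44 in the KD-labelled line at 12 h missed the threshold (adjusted p = 0.0602, 0.0186 with the block and 0.0398 with the compared groups alone). For Me1, 49.8% of the transcript is also in a processed pseudogene.

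Among conjugation and reduction genes, Nqo1 and Esd rose and the glutathione transferases did not pass. Nqo1, the quinone reductase often used as a readout of NRF2 (chr8:107388225-107403206, minus strand), was barely detected: its counts summed over 3 libraries were 1 at control, 18 at 12 h and 27 at 24 h in the KD-labelled line, and 5, 36 and 34 in the NC line. The ratio of count rates to control in the KD-labelled line was 19.5 at 12 h (exact 95% interval 3.08 to 813) and 29.5 at 24 h (4.86 to 1210). The NC ratio was 7.53 at 12 h (2.95 to 24.6) and 7.29 at 24 h (2.84 to 23.9), all intervals covering counting error only. All 4 comparisons passed (adjusted p = 0.00362 and 0.000854 in the KD-labelled line, 0.00367 and 0.00652 in the NC line). The mean level of Nqo1 was nevertheless lower in the KD-labelled line at each time. It was 0.071, 1.20 and 1.89 CPM there, against 0.33, 2.42 and 2.37 CPM in the NC line. Both control means lie below the floor of 3 counts, and the difference between the lines passed neither at any time nor averaged over times. Without the 6 libraries numbered 2, Nqo1 no longer passed in the KD-labelled line at 12 h and in the NC line at 24 h (adjusted p = 0.0865 and 0.0565), and the NC call at 24 h was also lost without control library 2 alone (adjusted p = 0.0516).

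Esd, S-formylglutathione hydrolase, which frees glutathione in formaldehyde clearance (chr14:74732297-74750765, plus strand), had 11.3, 9.61 and 10.4 CPM at control, 46.4, 58.2 and 50.4 CPM at 12 h and 35.0, 44.1 and 43.1 at 24 h in the KD-labelled line. NC levels of Esd were 5.63, 10.7 and 9.39 CPM at control, 42.1, 40.2 and 34.3 CPM at 12 h and 36.0, 37.3 and 30.0 at 24 h. Exposed libraries stood clear of the controls in both lines. The log2 changes were 2.31 ± 0.21 and 1.96 ± 0.21 in the KD-labelled line and 2.17 ± 0.21 and 1.99 ± 0.21 in the NC line, with adjusted p of 1.05e-06 or less. A stretch covering 42.8% of the Esd transcript is also in pseudogenes.

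Gstp1 and Gstm1, transferases that couple glutathione to electrophiles, had log2 changes of 0.14 to 0.63 and of -0.46 to -0.09, none past the threshold. Of the Gstp1 transcript, 86.1% is also in Gstp2, and of the Gstm1 transcript, 51% is also in the pseudogene Gstm2-ps1, which had 353 counts over all libraries against 113 for Gstm1, so counts for both are uncertain. Ugdh, which makes the sugar donor for glucuronidation, had log2 changes of -0.27 to -0.10 (adjusted p of 0.602 or more). Cbr1, a carbonyl reductase below the filter, summed to 14, 9 and 5 counts at control, 12 h and 24 h in the KD-labelled line and 2, 6 and 23 counts in the NC line. Its count-rate ratio at 24 h in the NC line was 12.3 (exact 95% interval 3.05 to 108), and without a filter on low counts it passed there (adjusted p = 0.0448). The 3 others below the filter, Gsta4, Cbr3 and Mgst1, are a glutathione transferase, a carbonyl reductase and a microsomal glutathione transferase.

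Of the exporters of glutathione conjugates, Abcc1 (chr16:14361558-14475737, plus strand) had 219, 193 and 235 CPM at control, 411, 352 and 393 CPM at 12 h and 321, 287 and 339 at 24 h in the KD-labelled line. NC levels of Abcc1 were 167, 177 and 187 CPM at control, 347, 320 and 355 CPM at 12 h and 261, 271 and 300 at 24 h. The exposed libraries did not overlap the controls, and levels at 12 h were above those at 24 h. The log2 changes were 0.84 ± 0.14 and 0.55 ± 0.14 in the KD-labelled line (adjusted p = 0.000112 and 0.0104) and 0.94 ± 0.14 and 0.65 ± 0.14 in the NC line (adjusted p = 4e-05 and 0.00363). The 24 h call in the KD-labelled line was lost without its 24 h library 3 or its control library 2 (adjusted p up to 0.0646), and with no filter on low counts (adjusted p = 0.0628). Abcc4 had 0.715 to 3.96 CPM and log2 changes of -0.39 to -0.02 with standard errors of 0.55 to 0.57.

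The 3 remaining members act on membrane lipids and growth. Osgin1, an oxidative stress-induced growth inhibitor, had 10.0, 10.1 and 11.9 CPM at control, 5.18, 7.76 and 4.41 CPM at 12 h and 8.41, 5.65 and 11.2 at 24 h in the KD-labelled line. NC levels of Osgin1 were 11.5, 8.08 and 6.13 CPM at control, 5.40, 4.31 and 7.13 CPM at 12 h and 4.31, 4.71 and 6.26 at 24 h. Its 12 h libraries in the KD-labelled line were all below control, with a log2 change of -0.87 ± 0.31 that missed the threshold (adjusted p = 0.0602). Osgin1 passed as lower there with the block (adjusted p = 0.0201), with library totals alone or a filter of 5 CPM in 3 libraries (0.0461 each), without the 6 libraries numbered 2 (0.0424), and without KD-labelled 12 h library 2 (0.0307) or NC control library 1 (0.05 after rounding). Aifm2, which encodes the ferroptosis suppressor FSP1, had 54.4 to 91.5 CPM and a lowest log2 change of -0.46 ± 0.18 in the NC line at 24 h (adjusted p = 0.127, 0.00235 with the block and 0.017 with library totals alone). Acsl4, which loads polyunsaturated fatty acids into phospholipids and favours ferroptosis, had 163 counts over the 18 libraries and standard errors of 0.66 to 0.71.

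Between 12 h and 24 h, few members moved, and those that did were lower at 24 h. In the KD-labelled line, Sqstm1, Srxn1 and Sod2 were lower at 24 h than at 12 h (3 of 34, against 1.46% of all genes lower), by -0.79 ± 0.17, -0.79 ± 0.20 and -1.03 ± 0.17 on the log2 scale (adjusted p = 0.0071, 0.024 and 0.000471). In the NC line, Srxn1 and Sod2 were lower (2 of 34, against 1.13% of all genes), by -0.90 ± 0.20 and -0.80 ± 0.17 (adjusted p = 0.0157 and 0.00887). The Sod2 call in the NC line was lost without 24 h library 2 (adjusted p = 0.0634). Without the 6 libraries numbered 2, Sqstm1 no longer passed in the KD-labelled line (adjusted p = 0.0507), nor Sod2 in the NC line (adjusted p = 0.0964). In each line the Srxn1 call was lost without 12 h library 1 or 3 or 24 h library 2 (adjusted p up to 0.117 in the KD-labelled line and 0.0828 in the NC line). With the block, 6 members passed in the KD-labelled line, all lower (5.48% of all genes lower), with Slc7a11, Gclm and Abcc1 added (adjusted p = 0.00238, 0.0224 and 0.0155). In the NC line with the block, 5 were lower and 1 higher (6.12% and 5.39% of all genes), with Sqstm1, Pgd and Abcc1 added as lower (adjusted p = 0.023, 1.7e-05 and 0.0141) and Cat as higher (adjusted p = 0.0316).

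Differences between the lines at a given time were small for most members. At control, Slc7a11 alone of the 34 was lower in the KD-labelled line (1.3% of all genes were lower), at 162 ± 39 CPM in KD-labelled cells and 297 ± 66 CPM in NC cells (SD, n = 3 each). The KD-labelled libraries all lay below the NC libraries, and the log2 difference was -0.88 ± 0.22 (adjusted p = 0.0326). That call was lost in 4 of the leave-out fits, when KD-labelled control library 1 or 3 or NC control library 2 or 3 was absent (adjusted p up to 0.197). At 12 h Slc7a11 was at 2600 ± 426 CPM in KD-labelled cells and 1772 ± 317 CPM in NC cells, a log2 difference of 0.55 ± 0.21 (adjusted p = 0.253, and 2.54e-06 with the block). At 24 h it was at 2067 ± 370 CPM in KD-labelled cells and 1529 ± 272 CPM in NC cells (0.43 ± 0.21, adjusted p = 0.422).

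The fold response of Slc7a11 was numerically larger in the KD-labelled line. Relative to the control library of the same number, the 12 h level was 16.6, 14.3 and 17.8 times as high in the KD-labelled line and 6.35, 5.83 and 5.83 times as high in the NC line. At 24 h the ratios were 13.0, 11.5 and 14.2 in the KD-labelled line and 5.49, 4.95 and 5.11 in the NC line. The ratios of the lines did not overlap at either time, and the exact two-sided permutation test over the 6 ratios gave p = 0.1, the smallest value that 3 against 3 allows. Such ratios also did not overlap between the lines at 12 h for Bach1, Sqstm1, Txnrd1, Pgd, Taldo1 and Aifm2. At 24 h the same held for Txnrd1, Gsr, Me1, Abcc1 and Aifm2. Each of these genes gave the same p = 0.1 in that permutation test. The share of all genes without overlap was not computed, so no response particular to a line is read from this list. The interaction of line and time for Slc7a11 was 1.43 ± 0.30 at 12 h and 1.31 ± 0.30 at 24 h on the log2 scale. This interaction did not pass in the edgeR fit reported here (adjusted p = 0.0825 and 0.186). It passed with DESeq2 (adjusted p = 0.00727 and 0.0206), without a filter on low counts (7.52e-05 and 0.000795) and with the block (1.34e-11 and 1.52e-10), and at 12 h also without NC control library 1. The block values carry a limit, since the numbers are not shown to pair the lines at control (lowest pair correlation 0.07), a point that both interactions use. In the edgeR fit reported here no member passed either interaction, where 0.075% and 0.0313% of all genes did. At an unadjusted p under 0.05 there were 2 members at 12 h (Slc7a11 and Txn1) and 2 at 24 h (Slc7a11 and Aifm2). The shares of all genes given here are for adjusted p. Those at an unadjusted p were not computed, so these counts are not read as many or few.

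**Figure D4:**
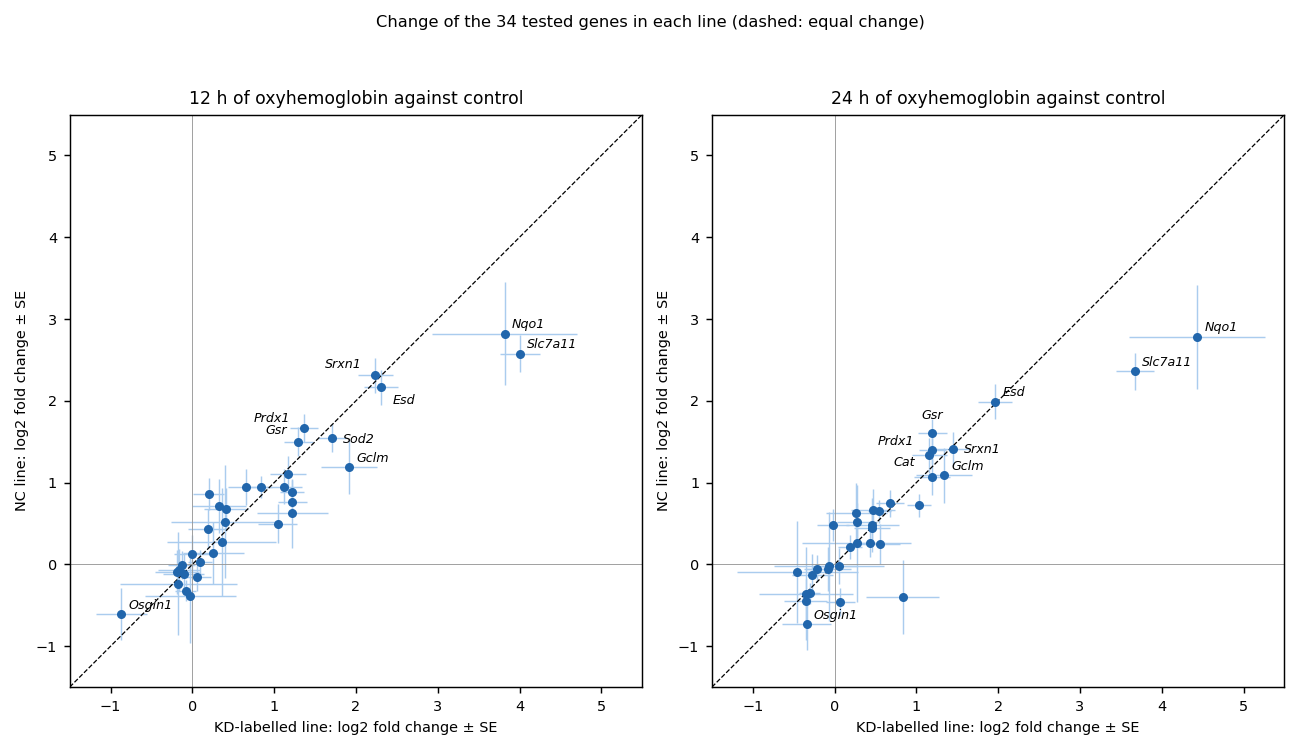
Log2 fold change against control in the KD-labelled line (horizontal axis) and in the NC line (vertical axis) at 12 h and 24 h for the 34 tested genes, with standard errors of the 3-library groups; the dashed line marks equal change. Most genes lie near the dashed line, Slc7a11 lies to its right at 4.003 against 2.57 at 12 h, and Nqo1 lies to its right with wide errors.

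Bach1 was higher in the KD-labelled line at each time, with no overlap between the lines. At 12 h it was at 166 ± 7 CPM in KD-labelled cells and 116 ± 7 CPM in NC cells, a log2 difference of 0.52 ± 0.13 (adjusted p = 0.0408), the only member higher, where 0.5% of all genes were. That call was lost without any 1 of the KD-labelled 12 h libraries, without NC 12 h library 1 or 3, or without KD-labelled control library 1 (adjusted p up to 0.214). Averaged over the 3 times, Bach1 was higher in KD-labelled cells by 0.38 ± 0.07 (adjusted p = 0.00162), and this kept its call in every alternative run. With the block at 12 h, 2 members were higher and 2 lower (4.42% and 6.44% of all genes), with Slc7a11 higher and Gpx4 and Pgd lower (adjusted p = 0.0375 and 0.00258 for the lower ones).

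Averaged over times, 1 member was higher and 4 were lower in the KD-labelled line, against 4.01% and 5.98% of all genes. Cat was lower by -0.46 ± 0.12 (adjusted p = 0.0203), and at 24 h it had 171, 132 and 175 CPM in KD-labelled cells and 205, 186 and 348 CPM in NC cells, without overlap. Sod2 was lower by -0.33 ± 0.10 (adjusted p = 0.034), Gclc by -0.27 ± 0.09 (adjusted p = 0.0489) and Prdx6 by -0.47 ± 0.15 (adjusted p = 0.0494). Leaving out a single library ended the Gclc call for 16 of the 18 libraries, the Prdx6 call for 14 and the Sod2 call for 11 (adjusted p up to 0.114, 0.125 and 0.0876), and ended the Cat call for none. Without the 6 libraries numbered 2, no member passed at control or at 12 h, and Bach1 and Cat alone passed averaged over times. At 24 h alone no member passed in the edgeR fit reported here or with DESeq2. There, 1.39% of all genes passed in that edgeR fit at the adjusted threshold. At an unadjusted p under 0.05 there were 2 members higher and 3 lower, and the share of all genes at that threshold was not computed.

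A further 120 genes of the same pathways were set beside the members, of which 86 were tested. In the KD-labelled line, 18 of the 86 were higher (20.9%, against 7.93% of all genes) and 6 lower (6.98%, against 8.06%) at 12 h, and 12 were higher (14%, against 5.5%) and 3 lower (3.49%, against 4.09%) at 24 h. In the NC line, 13 were higher (15.1%, against 6.69%) and 3 lower (3.49%, against 5.55%) at 12 h, and 9 were higher (10.5%, against 4.66%) and none lower at 24 h (2.91% of all genes). The shares lower were thus near or under those of all genes. Of 7 heme and iron genes, 4 were higher at 12 h and 3 at 24 h in the KD-labelled line (7.93% and 5.5% of all genes), and 3 at each time in the NC line (6.69% and 4.66%). These other genes were likewise chosen with results of these data known. Hmox1, heme oxygenase, which opens the heme ring, was at 1730 CPM at 12 h and 358.5 CPM at control in KD-labelled cells and at 2156 CPM at 12 h and 450.1 CPM at control in NC cells. Its log2 changes were 2.27 ± 0.27 at 12 h and 1.72 ± 0.27 at 24 h in the KD-labelled line and 2.26 ± 0.27 and 2.15 ± 0.27 in the NC line (largest adjusted p = 0.000125).

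In the KD-labelled line, Chac1, which degrades glutathione, rose by 2.07 ± 0.24 at 12 h and 1.63 ± 0.24 at 24 h, and Mthfd2, a mitochondrial folate enzyme that yields NADH or NADPH, rose by 1.37 ± 0.17 and 1.23 ± 0.17. Brca1, a DNA repair gene that has been tied to NRF2 stability, fell by 1.37 ± 0.15 at 12 h, at 39.0 CPM against 101 CPM at control. Mgst3, a microsomal glutathione transferase, fell by 1.72 ± 0.30 at 24 h, at 11.4 CPM against 38.0 CPM at control. In the NC line, the genes with the lowest adjusted p after Hmox1 were Slc48a1, a heme transporter (1.15 ± 0.20 at 12 h), Glrx, glutaredoxin (1.41 ± 0.25 and 1.46 ± 0.25), Blvrb, biliverdin reductase B (1.69 ± 0.32 and 1.76 ± 0.32), and Akr1b8, an aldo-keto reductase (1.36 ± 0.26 at 24 h). All of these passed, with a largest adjusted p of 0.00132. They were named by the lowest adjusted p in each comparison, so naming in 1 line does not show a change particular to that line. None of the 86 tested genes passed either interaction of line and time (0.075% and 0.0313% of all genes did).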

How the data were processed

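Genes were chosen by symbol, and the members, the lists of other pathway genes and the cell type markers were all chosen with earlier results of these data known. The authors deposited read counts per gene, which are whole numbers and not normalised, and TPM values; the deposited TPM were reproduced from those counts and the gene lengths in the table to within 4.89e-05. Per the submitters' processing notes the tools were bcl2fastq, HISAT2 2.2.0, featureCounts and DESeq2, on GRCm38; the annotation release, the strand setting and the treatment of reads with several matches are not given in the sources used here. Sample titles gave the groups and the library numbers.

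The quasi-likelihood test of edgeR 4.0.16 (with limma 3.58.1 in R 4.3.3) was run with robust fitting, TMM factors and 1 mean per group over all 18 libraries. Genes passed filterByExpr at a minimum count of 10, which left 15996 with 99.65% of the counts. P-values were adjusted by Benjamini-Hochberg over those genes, with a threshold of 0.05, in 12 comparisons. Normalised CPM are counts per 1000000 of the TMM-scaled library. The procedure was tested on simulated counts. Libraries of a group differed by more than counting noise in every pair, with chi-square over degrees of freedom of 4.98 to 19.6, so each was counted once. Deviations from group means of libraries with the same number correlated above 0.1 for every pair in the 6 comparisons within a line and in that between the lines at 12 h, and there the values with the number as a block are given where they change a call. Block values are also given for the interactions and the other line comparisons. The numbers are not shown to pair the lines at control or at 24 h. What a number stands for is not in the labels.

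Every member was accounted for, with values per library for members past the threshold in any comparison and for the 3 named regulators; of the other pathway genes, the 4 with the lowest adjusted p in each comparison with control were named. Positions came from GENCODE M21, near-identical transcripts from blastn 2.17.0 (at least 95% identity over 100 bases) and start regions from RefSeq. Alternatives were RLE and upper-quartile factors, library totals alone, no filter, a filter of 5 CPM in 3 libraries, DESeq2 1.42.0, the block, the compared groups alone, all libraries numbered 2 left out, and each library left out in turn.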

Additional observations from a re-analysis of the deposited data

How the results depend on the processing

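The counts of called members in the 4 comparisons with control stayed within 1.5 times of the reported 15 and 12 (KD-labelled line, 12 h and 24 h) and 15 and 11 (NC line) under every alternative except the block for the NC line at 24 h, which gave 17. Leaving out each library in turn gave 14 to 16 and 10 to 12 calls in the KD-labelled line and 14 to 15 and 10 to 12 in the NC line. No call changed direction under any alternative. Of the calls, 13 of 15 and 9 of 12 in the KD-labelled line and 14 of 15 and 9 of 11 in the NC line were kept in every alternative.

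The replicate block, with the library number as a pair, gave 6 calls for 24 h against 12 h in each line. For the KD-labelled against the NC line, the block gave 6 calls at control, 4 at 12 h, 5 at 24 h and 11 averaged over times (17.6, 11.8, 14.7 and 32.4% of the members, against 9.35, 10.9, 9.0 and 24.4% of all genes), and 1 call (Slc7a11) in each interaction. At control and at 24 h the lowest pair correlation was 0.07 and 0.095, so the numbers are not shown to pair the lines there. The block ended no call.

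The few calls between the lines were the least stable. At control there were 0 calls with library totals alone, with the compared groups alone and without the libraries numbered 2. At 12 h there were 0 with no filter, with the compared groups alone and without the libraries numbered 2. Averaged over times there were 3 with RLE factors, 3 with no filter and 2 without the libraries numbered 2. Each interaction gave 1 call (Slc7a11) with no filter and with DESeq2. For 24 h against 12 h in the NC line, leaving out the libraries numbered 2 gave 1. Leaving out single libraries gave 2 to 3 calls for 24 h against 12 h in the KD-labelled line and 0 to 2 in the NC line, 0 to 1 at control, 0 to 1 at 12 h, 0 at 24 h and 2 to 4 averaged between the lines, 0 to 1 for the interaction at 12 h and 0 at 24 h. The cause of these changes was not tested. With 3 libraries a group and few counts, changes of Nqo1, Gstm1, Acsl4, Abcc4 and Cbr1 are poorly resolved, and a gene that missed the threshold is not shown to be unchanged.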
